A study of Mus musculus with 8 samples.

Results

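Oligodendrocyte precursor cells, deposited under the class name OPC, made up 316 of the 12447 nuclei (2.54%) in a single-nucleus RNA sequencing study of the mouse low thoracic spinal cord. The class was chosen by elimination on the deposited annotation: of 6 classes, Neurons, Microglia and Oligodendrocytes were set aside by name, Astrocytes as the class with the highest Aqp4 (1130 CPM, the UMIs of a gene per 1000000 UMIs of the class) and Vascular as the class with the highest Flt1 (2420 CPM), and OPC was the one left (9.37 CPM of Aqp4 and 14.7 CPM of Flt1). All mice were wild type and of strain C57BL/6. In experiment 1 of the labels, uninjured cords gave 2 traced libraries, which carried GFP in traced neurons, and 2 untraced libraries without it. In experiment 2, 2 libraries came after a hemisection, a cut through one side of the cord, and 1 library from an uninjured control. Experiment 3 gave 1 library of traced neurons in a regenerating condition. The labels give neither ages nor the time from injury to sampling. Nothing in them says whether a library is 1 animal or a pool, so tests measure the spread between libraries.

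OPC nuclei came almost wholly from 5 libraries. The untraced libraries held 66 and 31, the hemisection libraries 14 and 26 and the control library 177, while the traced libraries held 1 each and the regenerating library 0 of 238 nuclei, which allows a share of up to 1.54% (exact 95% binomial limit). The summed UMIs were 324599 and 92874 in the untraced libraries, 72354 and 103523 in the hemisection libraries and 895153 in the control library. The hemisection libraries were the least deeply counted as a group, while untraced replicate 2 held fewer UMIs than hemisection replicate 2. The median UMIs per nucleus were 4577 and 2810, 4198 and 2942, and 4839 in the same order. All 177 control OPC nuclei, like all 4489 non-neuronal nuclei of that library, are listed without a barcode sequence, whereas its neurons all have one. Of the barcode sequences that are listed, 4 occur in more than 1 library, and 0 of them belong to OPC. The control library also stood apart in its makeup: the summed level of 11 neuron markers in its OPC nuclei was 2190 CPM against 454 to 677 CPM in the other 4 libraries, and that of 13 mature oligodendrocyte markers 3062 CPM against 386 to 754 CPM.

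Oligodendrocyte precursor cells are the resident glial progenitors of the adult cord. They divide under the control of platelet-derived growth factor, whose receptor PDGFRA they carry, extend processes rich in chondroitin sulfate proteoglycans such as NG2 (Cspg4) and versican, and receive synapses from neurons. A part of them leaves the cycle, passes through a committed stage marked by Gpr17, Bmp4 and Enpp6, and becomes myelinating oligodendrocytes; after injury they are known to gather around the lesion and to take up immune functions.

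The markers given for the class were high in it. Pdgfra (chromosome 5, 75152292 to 75198215, GRCm38, plus strand), the receptor for the main OPC mitogen, stood at 1134 and 894 CPM in untraced, 1173 in control and 774 and 1024 in hemisection OPC. It was found in 64 of 66 and 24 of 31 untraced, 11 of 14 and 25 of 26 hemisection and 156 of 177 control nuclei. Tnr (chromosome 1, 159523769 to 159931729, plus strand), which encodes the matrix protein tenascin-R, stood at 6220 and 5804 CPM in untraced, 5885 in control and 4782 and 5516 in hemisection OPC. The groups overlapped for Pdgfra, while for Tnr both hemisection libraries lay just below the uninjured ones. How many of all genes separate in this way was not counted. As the mean over libraries, Tnr was 17.5 times and Pdgfra 7.99 times its level in the next highest class, Neurons and Vascular respectively. The genes with the largest such ratio were Mybpc1, a myosin-binding protein (299 times), Vcan, the proteoglycan versican (108 times), and Neu4, a sialidase (74.0 times the level in the next class or its floor of 3 counts). The remaining 17 of the 20 leading genes had ratios from 10.5 (Cspg5, a neural proteoglycan) to 58.9 (Tmem255b), among them the committed-stage receptor Gpr17, the zinc finger factor Myt1, the secreted synaptic protein C1ql1, the guidance ligand Sema3d and cyclin D1 (Ccnd1). These ratios describe the genes by which nuclei were grouped and carry no test. Markers that define other classes were low: Csf1r of microglia was found in at most 2 nuclei of any library except for 3 of 177 in the control, Flt1 in at most 1 except for 4 of 177, and Aqp4 in at most 1 except for 13 of 177. The class was picked with Flt1 and Aqp4, so their low levels here are not a separate check of it.

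**Figure D1:**
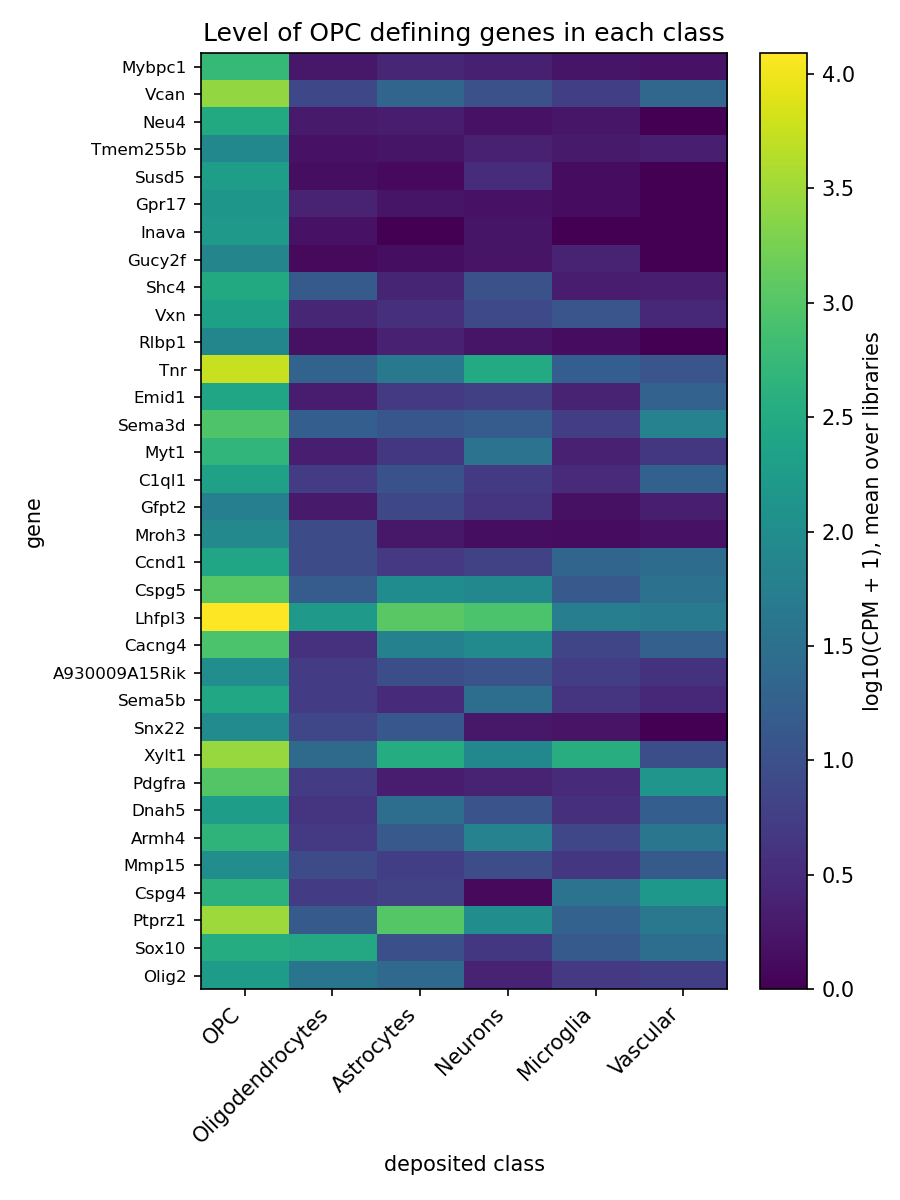
Heat map of 34 genes (rows) in the 6 deposited classes (columns), as log10(CPM + 1) of the mean over libraries. The 30 genes with the largest ratio of OPC to the next class are followed by Cspg4, Ptprz1, Sox10 and Olig2; OPC is the brightest column for the 30, while Sox10 is about as high in Oligodendrocytes.

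Because OPC were few, their abundance was read first. The share of OPC among non-neuronal nuclei was 4.17% (exact 95% binomial interval 3.24 to 5.28%, 66 of 1582 nuclei) and 4.06% (exact 95% binomial interval 2.77 to 5.71%, 31 of 764 nuclei) in the untraced libraries and 3.94% (exact 95% binomial interval 3.39 to 4.55%, 177 of 4489 nuclei) in the control library. The hemisection libraries fell on either side, at 12.1% (exact 95% binomial interval 6.76 to 19.4%, 14 of 116 nuclei) in replicate 1 and 1.85% (exact 95% binomial interval 1.21 to 2.70%, 26 of 1403 nuclei) in replicate 2. The hemisection mean was 6.96% ± 7.22 (SD, n = 2) and the uninjured mean 4.06% ± 0.114 (SD, n = 3), a difference of 2.90 percentage points. It had an exact two-sided permutation p of 0.7, where the smallest p this design allows is 0.1. Without hemisection replicate 1 the difference was -2.20 percentage points. Among all nuclei the shares were 3.41%, 3.49% and 2.67% in the uninjured libraries and 1.25% and 1.72% after hemisection, so that the groups did not overlap (difference -1.70 percentage points, exact permutation p = 0.1). Replicate 1 held 1000 neurons among 1116 nuclei and replicate 2 held 108 among 1511, so shares of all nuclei move with how many neurons a library kept. Among OPC and oligodendrocytes together the shares were 4.99%, 5.63% and 5.30% without injury and 18.4% and 3.29% after hemisection.

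**Figure D2:**
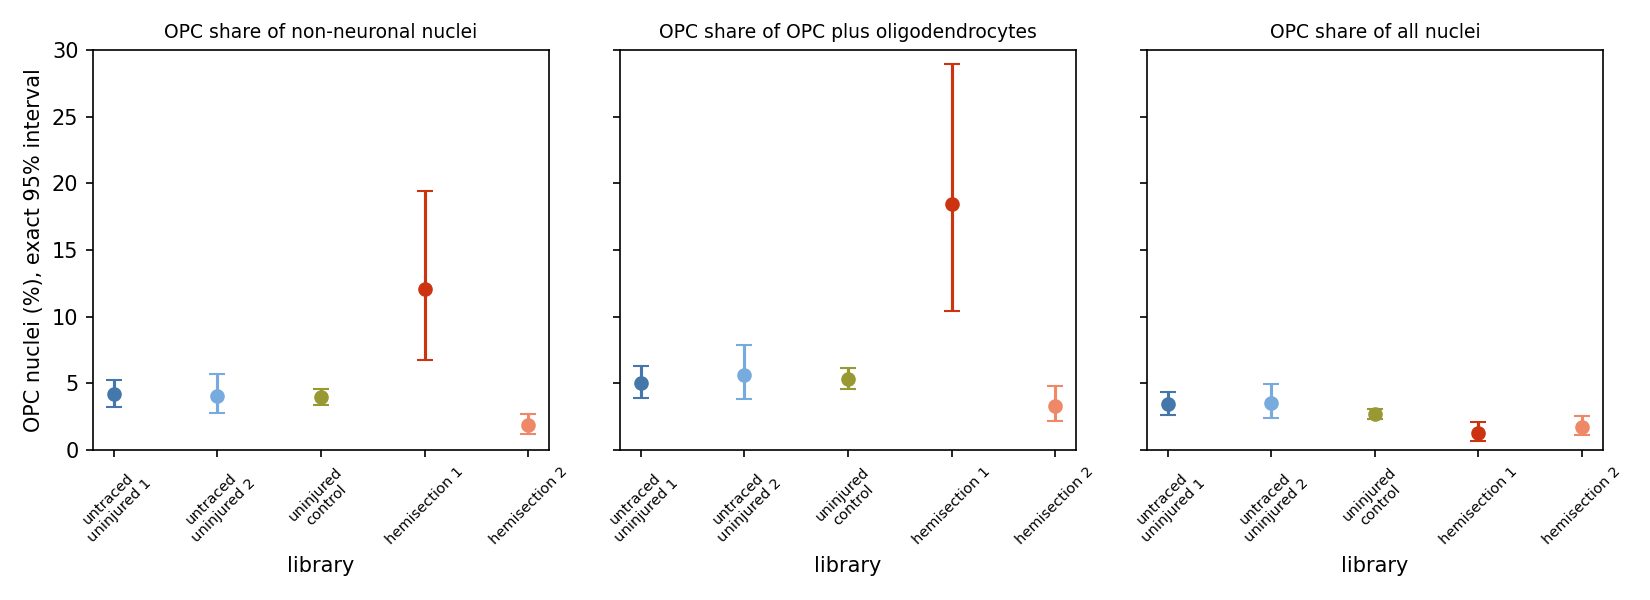
Share of OPC in each of 5 libraries (points, percent) with exact 95% binomial intervals (bars), over 3 denominators. The untraced and control libraries lie close together, and hemisection replicate 1 is the highest library over non-neuronal nuclei but the lowest over all nuclei.

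The expression comparison asked how OPC differ after a hemisection. UMIs were summed over the OPC nuclei of each library, and 3250 genes were tested with edgeR's quasi-likelihood test. Genes with an adjusted p (Benjamini-Hochberg) under 0.05 are those called here, and every adjusted p below is edgeR's unless another tool is named. The hemisection libraries were set against the control library of their own experiment and against the untraced libraries of experiment 1, so both comparisons share the same 2 hemisection libraries and are given side by side. Against the control, 55 genes (1.69%) were higher and 108 (3.32%) lower. Against the untraced libraries, 21 (0.646%) were higher and 1 (0.0308%) lower. Experiment and injury cannot be told apart in the second of these, and the control group of the first is 1 library, assumed to vary like the others.

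Interferon response genes rose after hemisection. Of 23 listed genes 14 had enough counts to be tested, and 8 were called higher against the control and 8 against the untraced libraries, none lower. The medians of the 14 were 4.62 and 4.32 on the log2 scale, beside 0.03 and 0.01 over all tested genes. All 14 were higher in both comparisons by their point estimate. Genes could pass the count filter through the hemisection libraries alone. The medians and the shared direction therefore follow in part from the filter and are a description, not a test. Between the uninjured groups (control against untraced, 84 of 3250 genes called) edgeR called 0 of the 14, with a median of -0.50. Several of the 14 had few UMIs in both of these groups, such as Nlrc5 with 2 and 2. A call was hardly possible for them, so the 0 does not show that the groups were alike. Rnf213, a large ubiquitin ligase induced by interferon, stood at 40.0 and 53.8 CPM in untraced, 35.7 in control and 898 and 289.8 in hemisection OPC. Both hemisection libraries lay above all 3 uninjured ones, by 3.92 ± 0.48 (SE), adjusted p = 1.81e-13 against the control and 3.71 ± 0.44 (SE), adjusted p = 8.68e-14 against the untraced libraries. Rnf213 was named by a rule that takes only genes without overlap, so the separation itself is not a finding. Nlrc5 (chromosome 8, 94434356 to 94527272, plus strand), the transactivator of MHC class I genes, stood at 6.16 and 0 CPM in untraced, 2.23 in control and 484 and 184 in hemisection OPC. With 54 UMIs after hemisection against 2 in the control the count ratio was 137 (95% interval 36.2 to 1164), and against the 2 UMIs of the untraced libraries it was 64.1 (16.9 to 543). Both were called (adjusted p = 3.17e-10 and 2.12e-09, edgeR).

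Ddx60, a helicase of antiviral sensing, stood at 9.24 and 21.5 CPM in untraced, 2.23 in control and 373 and 213 in hemisection OPC, and was higher than in the control by a count ratio of 125 (95% interval 32.7 to 1059, adjusted p = 2.21e-08). The oligoadenylate synthetase-like gene Oasl2 was listed at 0 UMIs in the control and 1 in the untraced libraries against 39 after hemisection, which is at least 66.2-fold higher than the control's floor of 3 counts (adjusted p = 1.76e-04). The interferon-inducible GTPase Iigp1 had 0 UMIs in all 3 uninjured libraries and 31 after hemisection, at least 52.6-fold higher than the control (adjusted p = 0.0105) and at least 24.5-fold higher than the untraced libraries (0.0284). In all, 27 of the 31 came from replicate 1. Herc6, a ubiquitin-like ligase of the same program, was higher by 3.67 and 3.34, although replicate 2 reached only 86.9 CPM against 553 in replicate 1. Ddx58, which encodes the RNA sensor RIG-I, was called only against the control (3.09 ± 0.82 (SE), adjusted p = 0.00678; 2.53 ± 0.72 (SE), adjusted p = 0.0516 against the untraced libraries), and Parp14, an ADP-ribosyltransferase, only against the untraced libraries, where it had 0 UMIs (at least 24.5-fold higher, adjusted p = 0.00912; 4.33 ± 1.58 (SE), adjusted p = 0.0994 against the control).

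The rise was carried by many nuclei. UMIs of any interferon response gene were found in 12 of 14 and 22 of 26 OPC nuclei after hemisection, against 42 of 66 and 13 of 31 in the untraced and 115 of 177 in the control library. With each nucleus thinned to 1000 UMIs (1 hemisection and 2 untraced nuclei were shallower and left out), the shares were 61.5% and 65.4% against 22.7%, 13.8% and 15.8%. Neurons of the same hemisection libraries, thinned alike, had such a UMI in 30.7% and 38.9% of nuclei, oligodendrocytes in 76.3% and 74.0% and microglia in 100.0% and 87.6%, so OPC lay above neurons and below microglia. In the sums of thinned nuclei 4 interferon response genes were testable and 0 were called, with edgeR medians of 3.16 against the control and 3.34 against the untraced libraries. Nlrc5 alone was found in 9 of 14 and 13 of 26 hemisection nuclei and in 2 of 66, 0 of 31 and 2 of 177 of the uninjured ones. In replicate 1, 1 nucleus held 134 of the 381 interferon response UMIs; without the top nucleus of each library, an alternative chosen after seeing the data, the list's summed level was 3944 and 1949 CPM after hemisection and 148 to 282 CPM in the uninjured libraries, and 7 list genes were called against the control and 6 against the untraced libraries. Without hemisection replicate 1 altogether, 5 genes were called against the control (Ddx58, Ddx60, Nlrc5 and Rnf213 among them) and 2 against the untraced libraries (Rnf213 among them). Without untraced replicate 1, 4 were called against the untraced libraries (Herc6, Ddx60, Nlrc5 and Rnf213). The summed level of 11 microglia markers in OPC nuclei was 166 and 415 CPM after hemisection and 102, 248 and 162 CPM in the uninjured libraries, ranges that overlap.

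Antigen presentation genes rose with them. Of 15 listed genes 6 were tested, and the same 3, H2-K1, H2-D1 and B2m, were called higher in each comparison, none lower (medians 2.90 and 3.50). These 6 could also pass the count filter through the hemisection libraries alone, so their medians are a description. H2-K1, a heavy chain of MHC class I, stood at 37.0 and 21.5 CPM in untraced, 50.3 in control and 373 and 396 in hemisection OPC, a difference of 2.87 ± 0.47 (SE), adjusted p = 2.48e-07 from the control and 3.55 ± 0.48 (SE), adjusted p = 2.74e-10 from the untraced libraries. H2-D1, the other classical heavy chain of this strain, stood at 64.7 and 64.6 CPM in untraced, 44.7 in control and 359 and 357 in hemisection OPC, higher by 2.93 and 2.48 (adjusted p = 2.07e-07 and 6.26e-06, edgeR). B2m, the light chain shared by both, stood at 27.7 and 21.5 CPM in untraced, 63.7 in control and 235 and 328 in hemisection OPC, higher by 2.10 and 3.45 (0.00151 and 1.48e-07). For each of the 3 genes both hemisection libraries lay above every uninjured library, which was not counted over all genes. MHC class II was near the limit of counting: Cd74, the invariant chain, had 8 and 11 UMIs after hemisection against 0, 0 and 3 in the uninjured libraries and was not called (adjusted p = 0.465 and 0.437), although DESeq2 called it against the untraced libraries. Microglia of the hemisection libraries held 1570 and 1650 CPM of it. Without hemisection replicate 2, B2m was not called against the control (1.88 on the log2 scale, adjusted p = 0.13). H2-K1 and H2-D1 are near copies of other MHC genes, so their split of reads is uncertain.

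**Figure D3:**
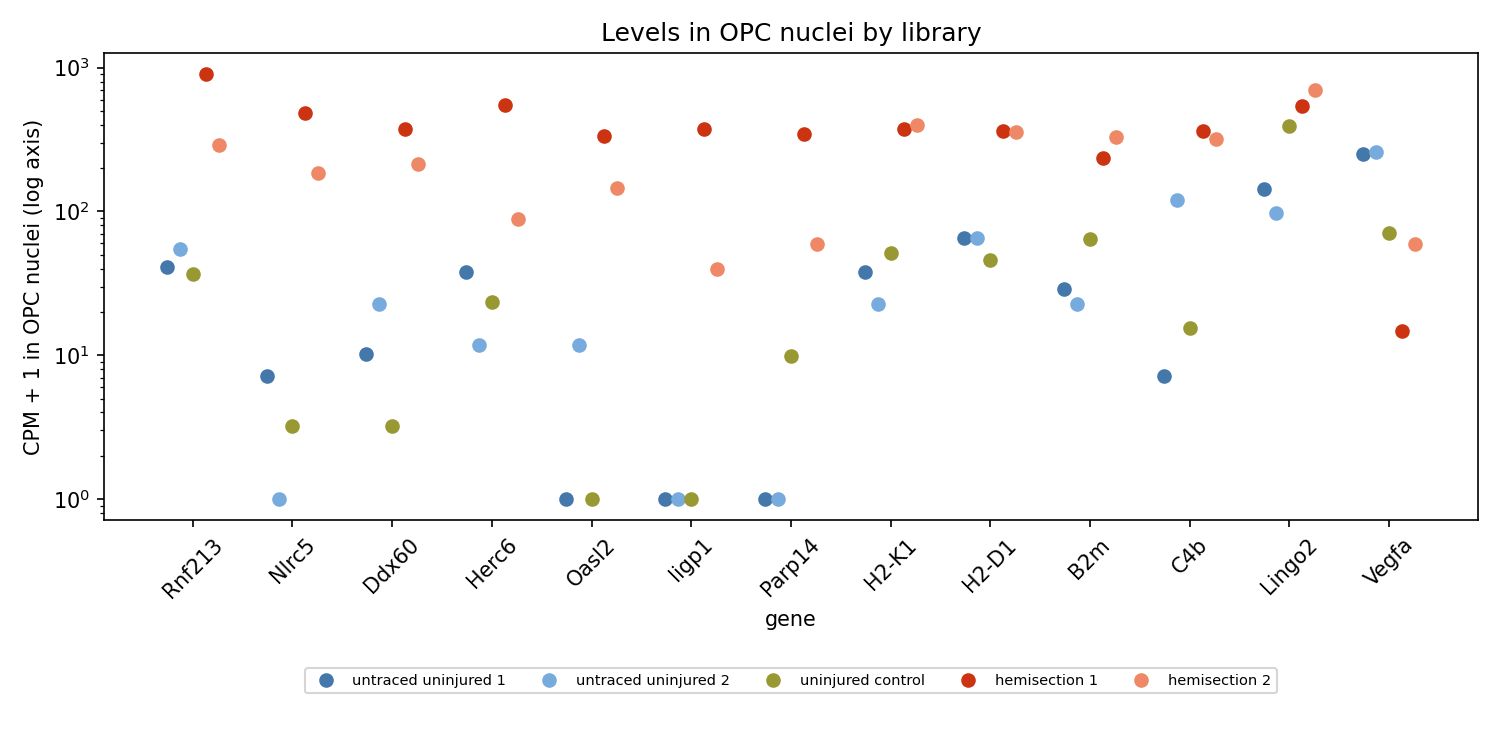
CPM + 1 (log axis) of 13 genes in the OPC nuclei of 5 libraries (points). For the 11 genes from Rnf213 to C4b both hemisection libraries lie above all 3 uninjured libraries. Genes named for the size of their rise were chosen without overlap between the groups, so for those the separation is not a finding. Lingo2 is lowest in the untraced and Vegfa highest in the untraced libraries.

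Promoter sequences were read for the 19 genes called higher in both comparisons, to show where the letters of the interferon-stimulated response element occur. That element is bound by transcription factors that interferon activates, and its core was searched as GAAANNGAAA on both strands in the 250 bases upstream of each RefSeq start (GRCm38.p6). Of the 19 genes 13 had an entry, and 3 of these held the core: B2m, Ddx60 and Parp11, a further ADP-ribosyltransferase. The core occurred in 2.98% of all 32851 promoter entries and in 2.53% of the 3474 entries of tested genes. A gene can have several entries, so the count of genes and the shares of entries are unlike units. The match is a description of letters only. The windows lie upstream of the first exon on the plus strand, at chr2:122147523-122147582 for B2m, chr8:61928009-61928086 for Ddx60 (which holds 2 cores) and chr6:127446771-127446830 for Parp11 (in 1 of its 2 entries, on the opposite strand), and are given 5′ to 3′ with the core in capitals.
B2m: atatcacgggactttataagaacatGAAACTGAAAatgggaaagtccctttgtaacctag
Ddx60: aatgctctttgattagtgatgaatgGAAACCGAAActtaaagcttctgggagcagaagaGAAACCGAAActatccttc
Parp11: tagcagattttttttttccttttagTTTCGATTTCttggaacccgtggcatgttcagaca
The last core ends 129 bases before the start of B2m, 9 bases before that of Ddx60 and 34 bases before that of Parp11. Parp11 stood at 52.4 and 53.8 CPM in untraced, 59.2 in control and 456 and 126 in hemisection OPC, a rise of 2.39 ± 0.49 (SE), adjusted p = 2.35e-04 against the untraced libraries.

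Outside these lists, C4b, the complement component made by glia, stood at 6.16 and 118 CPM in untraced, 14.5 in control and 359 and 319 in hemisection OPC. It was higher by 4.44 ± 0.58 (SE), adjusted p = 1.54e-11 against the control and by 3.20 ± 0.52 (SE), adjusted p = 4.03e-07 against the untraced libraries. The call was kept in 12 of 13 alternative settings against the control and in 12 of 14 against the untraced libraries. The difference from the untraced libraries ranged from 1.54 to 5.67 over these settings. C4b was 1 of 2 tested genes of a list of 17 complement and reactive genes. Lingo2 (chromosome 4, 35706647 to 36951747, minus strand), a membrane protein of the family of the myelination brake LINGO1, stood at 142 and 96.9 CPM in untraced, 394 in control and 539 and 695 in hemisection OPC. It rose by 2.31 ± 0.36 (SE), adjusted p = 1.21e-07 against the untraced libraries and did not pass the test against the control (0.59 ± 0.37 (SE), adjusted p = 0.520). In the control library its level in OPC was close to that in oligodendrocytes (460.0 CPM) and microglia (464 CPM) of that library, while in the hemisection libraries these classes held 187 and 73.9, and 60.4 and 28.0 CPM. Neurons held 3229 to 5000 CPM of it over the 5 libraries.

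Several genes of synapse, matrix and excitability rose by less but in both comparisons. Nrxn3, a presynaptic adhesion protein, stood at 2945 and 3607 CPM in untraced, 2383 in control and 5653 and 5438 in hemisection OPC, higher by 1.15 and 0.79 (adjusted p = 2.16e-06 and 2.81e-04, edgeR). Gpc5, a heparan sulfate proteoglycan, stood at 1519 and 1260 CPM in untraced, 1553 in control and 2681 and 2792 in hemisection OPC, higher by 0.75 and 0.99 (0.0368 and 2.11e-04). Kcnd2, the A-type potassium channel Kv4.2, stood at 4325 and 4350 CPM in untraced, 3681 in control and 6012 and 6588 in hemisection OPC, higher by 0.71 and 0.56 (0.00620 and 0.0339). In all 3 genes the groups did not overlap, which was not counted over all genes. The calls depended on the processing. Nrxn3 was called in 14 of 14 alternative settings against the control and 12 of 15 against the untraced libraries. Gpc5 was called in 5 of 14 and 12 of 15, and Kcnd2 in 9 of 14 and 7 of 15. Few others of their lists were called. Of 30 tested synaptic and adhesion genes 2 were higher and 1 lower against the control and 1 higher against the untraced libraries. Of 15 proteoglycan and matrix genes 2 were higher and 1 lower, and 1 was higher, in the same order. Of 16 voltage-gated channels 1 was higher in each comparison. Of 18 tested glutamate receptor genes and 8 GABA and glycine receptor genes 0 were called in either comparison, with edgeR medians between -0.18 and 0.13. The largest receptor difference was -2.71 on the log2 scale (Grin1, an NMDA receptor subunit, against the control, adjusted p = 0.0787), so the misses do not show that receptor levels were alike. Of the remaining genes called in both comparisons, St3gal4, a sialyltransferase, stood at 111 and 43.1 CPM in untraced, 83.8 in control and 387 and 203 in hemisection OPC, Oxr1, an oxidation resistance gene, at 595 and 323 CPM in untraced, 436 in control and 1106 and 908 in hemisection OPC, and Adamts9, a protease that cleaves versican, at 30.8 and 129 CPM in untraced, 54.7 in control and 55.3 and 367 in hemisection OPC. For St3gal4 and Oxr1 both hemisection libraries were above all uninjured ones, likewise not counted over all genes. For Adamts9 hemisection replicate 2 alone was. Against the control only, Gpc6, a further glypican (1.12 ± 0.27 (SE), adjusted p = 0.00189), and Pcdh17, a protocadherin (1.17 ± 0.36 (SE), adjusted p = 0.0311), were also called, as were Ankrd6 (1.54 ± 0.34 (SE), adjusted p = 5.61e-04) and the interferon-inducible GTPase Irgm1 (4.66 ± 1.52 (SE), adjusted p = 0.0443).

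Vegfa, the vascular growth factor (chromosome 17, 46016993 to 46032369, minus strand), was the 1 gene called lower against the untraced libraries. It stood at 249.5 and 258 CPM in untraced, 69.3 in control and 13.8 and 58.0 in hemisection OPC, a difference of -2.65 ± 0.55 (SE), adjusted p = 3.93e-04. The control library was also below the untraced ones (-1.78 ± 0.44 (SE), adjusted p = 0.00358) and lay close to the hemisection range, and against the control the gene was not called (-0.87 ± 0.65 (SE), adjusted p = 0.663). Without hemisection replicate 1 the fall against the untraced libraries was not called (-2.10, adjusted p = 0.12), nor without untraced replicate 1 (-2.68, adjusted p = 0.099).

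Few identity genes were called. Of 20 OPC markers, all tested, 1 was higher (Lhfpl3, 0.78) and 1 lower (C1ql1, -1.44) against the control and 0 were called against the untraced libraries (edgeR; medians 0.06 and -0.15). Lhfpl3, a tetraspan protein, was at 11580 and 13061 CPM in untraced, 8082 in control and 13019 and 15996 in hemisection OPC, with the control lowest. Pdgfra differed by -0.44 ± 0.28 (SE), adjusted p = 0.556 from the control and -0.16 ± 0.25 (SE), adjusted p = 0.955 from the untraced libraries, and Tnr by -0.25 ± 0.18 (SE), adjusted p = 0.602 and -0.20 ± 0.15 (SE), adjusted p = 0.875. Of 15 tested lineage transcription factors, such as Olig1, Olig2, Sox10 and Sox6, 0 were called in either comparison, and likewise 0 of 8 growth factor receptors. Of the 5 tested cell cycle genes 1 was called: Ccnd1, a G1 cyclin that OPC keep at a high level, stood at 191 and 183 CPM in untraced, 104 in control and 332 and 454 in hemisection OPC, higher by 1.87 ± 0.42 (SE), adjusted p = 7.23e-04 against the control, and 1.10 ± 0.37 (SE), adjusted p = 0.204 against the untraced libraries. The proliferation gene Mki67 was found in 1 of 14 and 1 of 26 OPC nuclei after hemisection and in 1 of 66, 1 of 31 and 2 of 177 without injury. The 1 nucleus in each untraced and hemisection library held several UMIs of it, 6 and 5, and 6 and 4. Of neurons, which do not divide, 1.86 to 9.26% had a Mki67 UMI over the 5 libraries, at greater depth.

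Genes of commitment and myelin were called lower after hemisection against the control, with 0 calls against the untraced libraries. Of 9 tested markers of committed precursors and newly formed oligodendrocytes 6 were called lower (Enpp6, Gpr17, Bcas1, Fyn, Frmd4a and Sirt2) against the control and 0 against the untraced libraries (edgeR, medians -1.18 and -0.44). DESeq2 called 0 of the 9 and 2 of 8 myelin genes against the control. Enpp6 (chromosome 8, 46986887 to 47096762, plus strand), a choline phosphodiesterase of newly forming oligodendrocytes, had 146 UMIs in the control and 0 after hemisection, at least 9.56-fold lower (adjusted p = 2.89e-04), and 2 in the untraced libraries. Gpr17, the receptor that marks commitment, stood at 169 and 118 CPM in untraced, 327 in control and 82.9 and 38.6 in hemisection OPC, a difference of -2.57 ± 0.51 (SE), adjusted p = 5.68e-05 from the control and -1.38 ± 0.54 (SE), adjusted p = 0.343 from the untraced libraries. Of 8 myelin genes 4 were lower against the control (Mbp, Mag and Fa2h among them) and 0 against the untraced libraries. Mbp, the myelin basic protein, stood at 89.3 and 172 CPM in untraced, 414 in control and 41.5 and 38.6 in hemisection OPC. The control was far above the other 4 libraries (hemisection differed from it by -3.43, adjusted p = 4.41e-08).

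The 2 hemisection differences differ by exactly the control against the untraced libraries, a comparison in which experiment and library cannot be told apart. Of 3250 genes 77 (2.37%) were higher and 7 (0.215%) lower in the control, with no injury in either group. Enpp6 was higher by a count ratio of 34.0 (95% interval 9.26 to 284, adjusted p = 6.14e-05) and Mbp by 1.91 on the log2 scale (2.07e-04, edgeR). Frmd4a and Fyn were higher by 1.63 and 1.31 (adjusted p = 2.74e-07 and 0.00291). Gpr17 (1.19, adjusted p = 0.0763), Bcas1 (0.73, 0.221) and Sirt2 (0.44, 0.928) were not called there, nor were Mag (1.80, 0.367) and Fa2h (0.51, 0.894). St18, a zinc finger factor of the oligodendrocyte lineage, stood at 52.4 and 21.5 CPM in untraced, 533 in control and 179.7 and 38.6 in hemisection OPC, 3.67 ± 0.44 (SE), adjusted p = 2.11e-13. Nkain2, a membrane protein that interacts with the sodium pump, stood at 64.7 and 248 CPM in untraced, 869 in control and 55.3 and 77.3 in hemisection OPC, and Cox6c, a subunit of cytochrome oxidase, at 43.1 and 21.5 CPM in untraced, 187 in control and 13.8 and 9.66 in hemisection OPC. Among neuronal genes, Nefl and Nefm of the neurofilaments had 131 and 186 UMIs in the control against 1 and 3 in the untraced and 2 and 1 in the hemisection libraries, and the long RNA Snhg11 was higher by 2.84 ± 0.36 (SE), adjusted p = 5.87e-12. The adhesion gene Cntnap2 was higher by 2.85 (adjusted p = 6.47e-09). Of 9 tested mitochondrial transcripts 8 were higher in the control, and 9 of 9 were lower after hemisection than in the control, with a median of -2.91. Against the untraced libraries edgeR called 0 of 9, with a median of -1.02. DESeq2 called 6 of 9 lower after hemisection than in the control. Genes lower in the control included Zbtb16, a zinc finger factor, at 188 and 226 CPM in untraced, 41.3 in control and 82.9 and 174 in hemisection OPC, Arhgef3, a guanine nucleotide exchange factor, at 268 and 312 CPM in untraced, 77.1 in control and 249 and 551 in hemisection OPC, Egr1, an immediate early gene, at 58.5 and 129 CPM in untraced, 3.35 in control and 111 and 280.1 in hemisection OPC, and Vcan, at 3555 and 3112 CPM in untraced, 1835 in control and 2405 and 2695 in hemisection OPC (-0.78 ± 0.22 (SE), adjusted p = 0.0173). Mfsd2a, a lipid transporter, and Rph3a, a synaptic vesicle protein, were lower after hemisection than in the control by -3.48 and -3.47 (adjusted p = 0.00858 and 0.00411), and were not called between the uninjured groups. Nsg1, a neuronal endosome gene, was also lower after hemisection than in the control, by -4.30 (adjusted p = 0.00905). The part of the neuronal, mitochondrial and myelin RNA of the control library in its other differences was not tested. Without untraced replicate 1 or 2, 54 or 36 genes were called between these groups, 3 mitochondrial transcripts in the first case.

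Within the control library Enpp6 was found in few nuclei. Of its 177 OPC nuclei 24 had an Enpp6 UMI (13.6%; 6.78% when thinned to 1000 UMIs), against 2 of 66 and 0 of 31 untraced and 0 of 14 and 0 of 26 hemisection nuclei, where 0 of 26 allows a share of up to 13.2%. Of control neurons, which lack the gene, 7.73% had a UMI at a median of 8907 UMIs, and 1.16% when thinned. The 24 nuclei were chosen on Enpp6, and the other genes below are a description with no test. They held 3932 against 344 CPM of the Src-family kinase Fyn in the nuclei with and without Enpp6, 8291 against 668 CPM of Frmd4a, 4481 against 617 CPM of the premyelinating marker Bcas1, 2968 against 80.8 CPM of St18 and 221 against 3.97 CPM of Bmp4, a BMP ligand. Other committed-stage genes were also found in the rest: Gpr17 in 91.7% of the 24 nuclei and in 45.1% of the other 153, Bcas1 in 95.8% and 84.3% and Fyn in 95.8% and 71.2%, at median depths of 5982 and 4782 UMIs. In the other direction they held 364 against 1323 CPM of Pdgfra, 85.6 against 559 CPM of Cspg4, 2255 against 9164 CPM of Lhfpl3 and 949 against 3094 CPM of the phosphatase Ptprz1. Tnr was higher in them (11331 against 4874 CPM), and Sox10 was at 492 against 428 CPM. Of mature myelin genes, Mbp and Mag were higher (1420 against 228 CPM and 378 against 71.5 CPM), and Mobp and Mal lower (49.9 against 59.6 CPM and 57.1 against 87.4 CPM). All 34 Bmp4 UMIs in the OPC of the 5 libraries were in the control, 31 of them in these 24 nuclei.

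Leaving out the tenth of nuclei with the most markers of other cell types, 30 of which were control nuclei and 0 hemisection nuclei, gave 1 of 8 tested committed-stage markers called lower against the control (Gpr17) and a median of -0.01 in place of -1.18. Those markers include genes of mature oligodendrocytes, so the nuclei left out were chosen on genes near to the outcome. Without hemisection replicate 1, 2 committed-stage markers were called lower (Enpp6 and Gpr17), and without replicate 2, 3 (Frmd4a, Bcas1 and Enpp6).

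**Figure D4:**
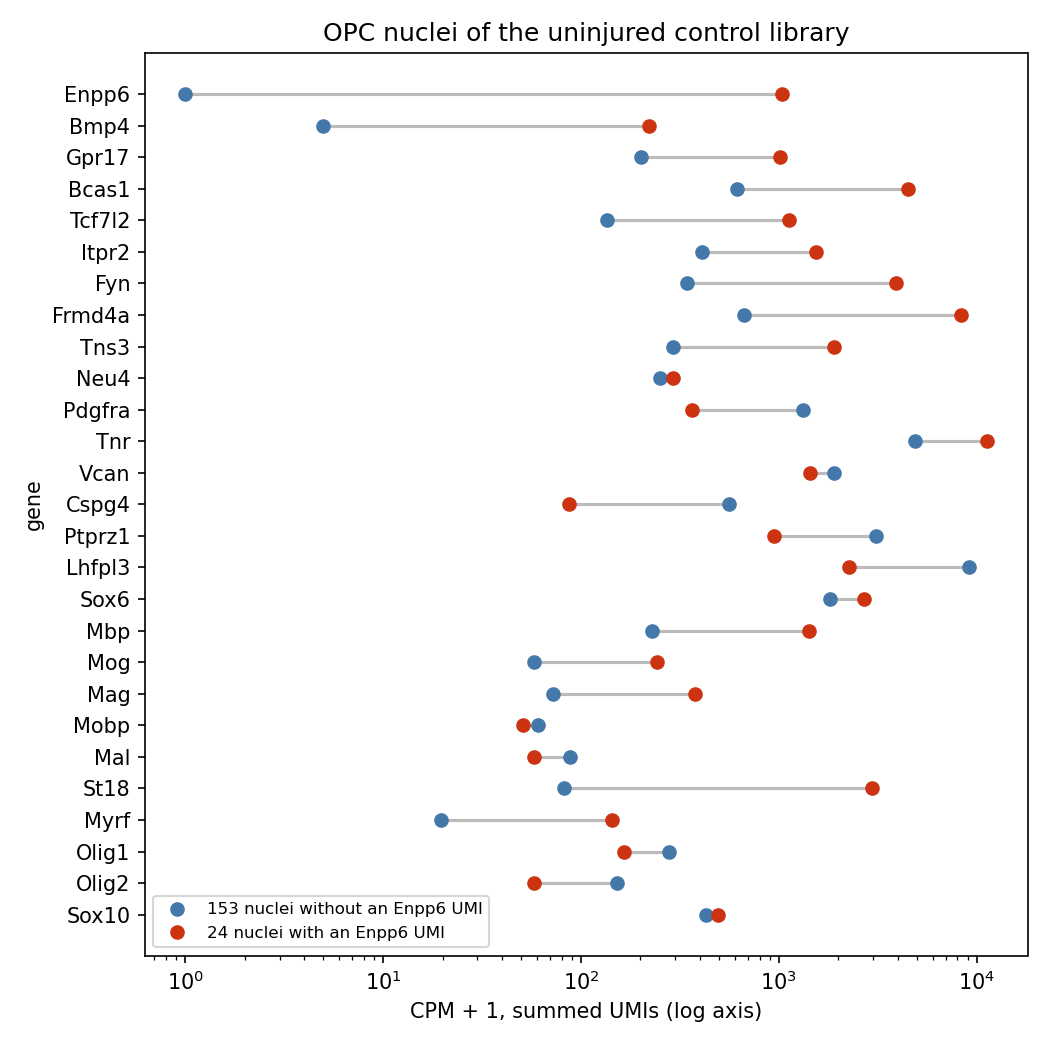
CPM + 1 (log axis) of 27 lineage genes (rows) in the 24 OPC nuclei of the control library with an Enpp6 UMI and the 153 without one. Committed-stage genes lie to the right in the 24 nuclei, and Pdgfra, Cspg4, Ptprz1 and Lhfpl3 to the left.

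Cholesterol synthesis genes supply myelin lipid. Of 20 listed genes 8 were tested: 2 were called lower against the control (Msmo1 among them) and 0 against the untraced libraries, where the edgeR median was -1.50 (0.01 over all tested genes) and all 8 point estimates were negative (249 genes had an unadjusted p under 0.05 in that comparison). These 8 could pass the count filter through an uninjured group alone. Their median and shared direction are therefore a description, not a test. Msmo1, a sterol oxidase, stood at 80.1 and 32.3 CPM in untraced, 106 in control and 0 and 19.3 in hemisection OPC. The difference from the control was -3.25 ± 1.05 (SE), adjusted p = 0.0394, and that from the untraced libraries -2.44 ± 1.08 (SE), adjusted p = 0.460. Both hemisection libraries were the lowest of the 5, with 2 UMIs between them. The summed level of the list was 249 and 367 CPM after hemisection and 801, 937 and 1385 CPM in the uninjured libraries, which did not overlap.

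Last, the hemisection differences of OPC were set against those of other classes in models with a term for the difference itself and a block for the library. Against oligodendrocytes, their descendants, and with the control as reference, 131 of 10658 genes (1.23%) had a larger and 44 (0.413%) a smaller difference in OPC. With the untraced reference, added after seeing the data, 3 (0.0281%) were larger and 11 (0.103%) smaller. Interferon response genes were higher after hemisection in both classes. In oligodendrocytes 22 of 23 were called against the untraced libraries, beside 359 of all 11924 genes tested there (248 higher and 111 lower). Between the classes 0 of 23 differed in that reference (median difference -1.08, with all genes at -0.07), which does not show that the rises were equal. In the control reference 1 of 23 differed: Ifit2, an interferon-induced RNA-binding protein, had a smaller difference in OPC (-4.32 ± 1.10 (SE), adjusted p = 0.00825), and the median over the list was -0.37. Ifit2 had 3 and 0 UMIs in hemisection OPC and 22 in the control, and was not called without hemisection replicate 2 (-3.54, adjusted p = 0.61). H2-D1 rose less in OPC than in oligodendrocytes, by -1.85 ± 0.50 (SE), adjusted p = 0.0171 with the control and -2.58 ± 0.51 (SE), adjusted p = 0.00108 with the untraced reference. H2-K1 and B2m differed in the control reference only (-1.71 ± 0.51 (SE), adjusted p = 0.0461 and -1.97 ± 0.50 (SE), adjusted p = 0.00758). H2-D1 was at 64.7 and 64.6 CPM in untraced OPC and 14.7 and 16.3 CPM in untraced oligodendrocytes. In oligodendrocytes of the hemisection libraries, from another experiment, it was at 349 and 732 CPM. Lingo2 went the other way, with a difference larger in OPC by 2.82 ± 0.44 (SE), adjusted p = 2.60e-07 in the control and 2.60 ± 0.42 (SE), adjusted p = 4.41e-06 in the untraced reference. Without hemisection replicate 2, 8 genes differed from oligodendrocytes in the control reference, and none of these 4 did (adjusted p from 0.60 to 0.87). In the untraced reference neither Lingo2 (1.39, adjusted p = 0.91) nor H2-D1 (-2.14, adjusted p = 0.38) differed without that library, and H2-D1 did not without untraced replicate 1 (-2.51, adjusted p = 1).

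Against microglia with the untraced reference, also added after seeing the data, 33 of 9500 genes (0.347%) had a larger and 41 (0.432%) a smaller difference in OPC. Nlrc5 rose more in OPC, by 4.18 ± 0.89 (SE), adjusted p = 0.00111, and Parp14 by 7.53 ± 1.76 (SE), adjusted p = 0.00453. These were 2 of the 23 interferon response genes, of which 18 had a positive point estimate. Microglia of the untraced libraries had both Nlrc5 and Parp14, with Nlrc5 at 132 and 125 CPM. In hemisection microglia Nlrc5 was at 374 and 443 CPM, between the 184 and 484 CPM of hemisection OPC. Lingo2 (3.00 ± 0.61 (SE), adjusted p = 5.85e-04) also differed, as did Vegfa (-3.92 ± 1.07 (SE), adjusted p = 0.0360), which fell in OPC and had 0 and 4 UMIs in untraced microglia. Leaving out 1 library ended each of these 4 calls. Without hemisection replicate 1, Nlrc5 (3.43, adjusted p = 0.098) and Parp14 (6.47, adjusted p = 0.40) were not called. Without hemisection replicate 2, Lingo2 (1.85, adjusted p = 0.83) and Vegfa (-0.15, adjusted p = 1) were not. Without untraced replicate 1, 12 genes in all differed and Nlrc5, Parp14 and Vegfa were not among them (adjusted p from 0.29 to 0.87). Without untraced replicate 2, Lingo2 was not called (0.72, adjusted p = 1). Igkc, an immunoglobulin light chain that OPC do not make, was at 270.5 CPM in OPC of hemisection replicate 2 and at 596, 555 and 141 CPM in its oligodendrocytes, microglia and neurons. Its call in OPC against the control (at least 50.9-fold higher) stands beside those levels, and their part in it was not tested.

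**Figure D5:**
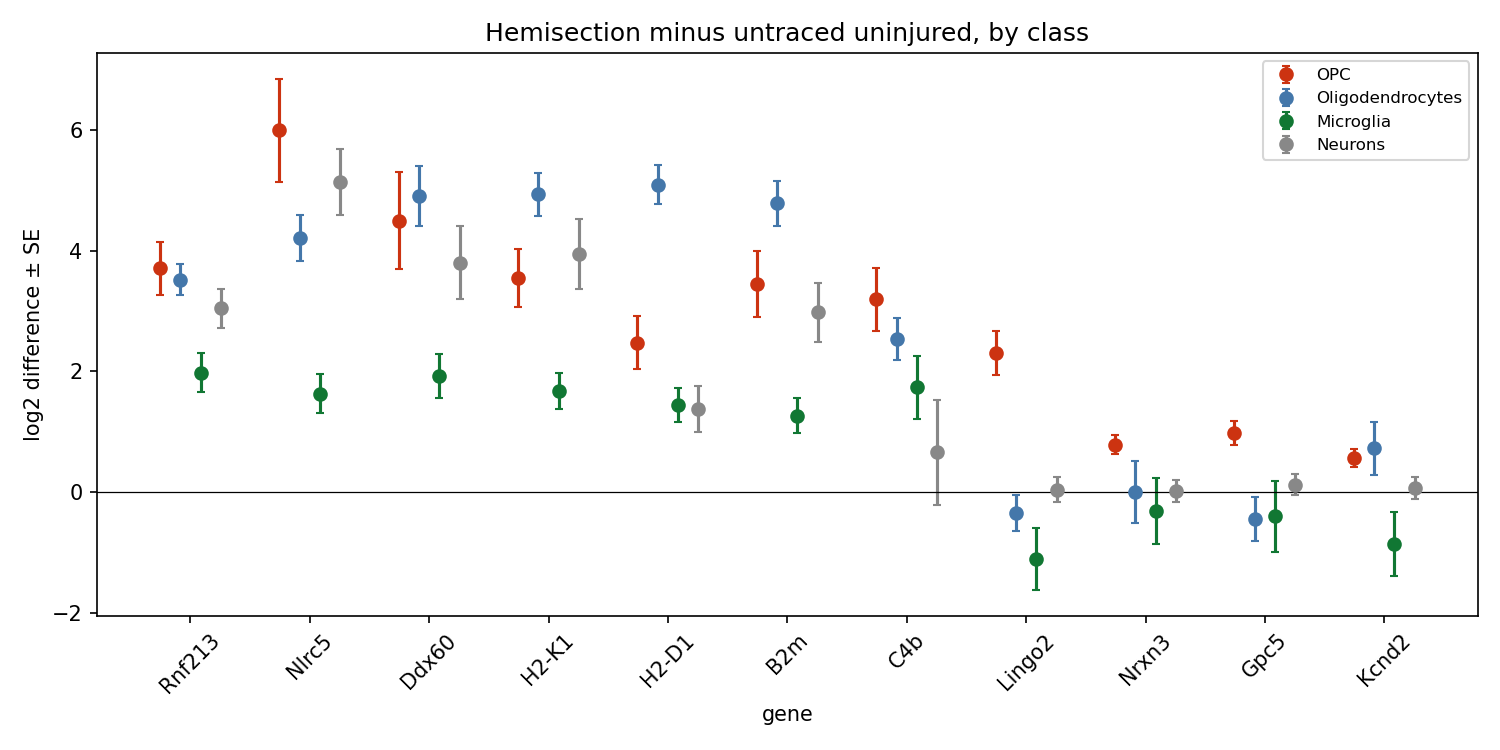
Log2 difference of hemisection from untraced uninjured libraries (points, edgeR) with its SE (bars) for 11 genes in OPC, oligodendrocytes, microglia and neurons. The first 7 genes are above 0 in all 4 classes, and Lingo2, Nrxn3 and Gpc5 lie above 0 by more than 1 SE in OPC and within 1 SE of 0 or below it in oligodendrocytes and microglia.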

How the data were processed

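Nuclei of the low thoracic cord were sequenced with 10x v3 chemistry, per the labels. The authors deposited UMI counts, not normalized, for 19787 genes, and an annotation table whose other columns (library and class names) were used as deposited; 2 columns were not used. Cell Ranger 4.0.0, Seurat 3 and the builds mm10 and GRCm38 are named in the submitters' processing notes; filters on nuclei and the treatment of doublets are not stated in the labels, and no doublet caller was run.

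Counts were summed per library and class where a library held at least 10 OPC nuclei (5 libraries) and fitted with edgeR 4.0.16 in R 4.3.3 (TMM, filterByExpr with a minimum count of 10 and total of 15, 1 coefficient per group, 2 residual degrees of freedom, Benjamini-Hochberg over all tested genes). A lone control library was assumed to vary like the other groups. A gene could pass the filter through 1 group alone, so list medians and directions can lean toward the group in which the members are high. Standard errors come from the F statistic. The fit was tested on simulated data. DESeq2 1.42.0, other scaling, filters, thinning and left-out libraries were tried. Named genes are the 10 largest rises and 10 largest falls called per comparison (mean of at least 20 CPM, no overlap, no unnamed models, mitochondrial or ribosomal genes), the members with the smallest p of each list described, and Pdgfra and Tnr; Cd74, Grin1, Parp11, Nefl, Mki67, Bmp4 and the genes described beside Enpp6 are named beyond it, having been chosen after their values were seen. The class, members, lists and tests were chosen with earlier results of these data known. Folds against 0 counts use a floor of 3 counts over the group, and ratios of 1 to 3 counts carry exact binomial intervals; both cover counting error only. In single nuclei, fewer expressing nuclei and less RNA per nucleus cannot be told apart in a sum. Sequences are RefSeq's (GRCm38.p6); gene positions are GENCODE M21's. Some genes that the naming rule picks are not reported here. Astrocytes were not set against OPC, since the hemisection libraries held 6 and 7.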

Additional observations from a re-analysis of the deposited data

Results flagged for a closer look

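The following genes called in a hemisection comparison had a hemisection difference that itself differed between OPC and another class, as tested with edgeR's interaction term; each value is the OPC difference minus that of the other class on the log2 scale.

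Against oligodendrocytes, with the control library as reference, these were B2m (-1.97), Ccnd1 (3.38), Egr1 (5.83), Enpp6 (-11.11), Gpc5 (3.20), Gpc6 (3.46), H2-D1 (-1.85), H2-K1 (-1.71), Kcnd2 (2.37), Lingo2 (2.82), Mag (-3.11), Mbp (-3.13), Nkain2 (-3.68), Nrxn3 (3.29), Sema3d (2.09), St18 (-2.67). Without hemisection replicate 2, 1 of these 16 genes (Nkain2) was called, and Ccnd1 was at 0.73 (adjusted p = 0.95). The control library held more neuronal, myelin and mitochondrial RNA in its OPC nuclei than the other libraries, and 24 of its 177 OPC nuclei had an Enpp6 UMI; the part of these in the values was not tested. With the untraced reference they were H2-D1 (-2.58), Lingo2 (2.60). Against microglia with the untraced reference they were Egr1 (3.42), Lingo2 (3.00), Nlrc5 (4.18), Parp14 (7.53), Vegfa (-3.92). Egr1 fell in microglia after hemisection (-1.93 ± 0.45 (SE), adjusted p = 0.00184, edgeR) and did not pass the test in OPC (1.31 ± 0.56 (SE), adjusted p = 0.430). Its difference from microglia was not called without hemisection replicate 2 (2.61, adjusted p = 0.86) or without untraced replicate 1 (2.84, adjusted p = 0.30).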

How the results depend on the processing

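Main counts were 163 genes called against the control, 22 against the untraced libraries and 84 for the control against the untraced libraries, with 8 and 8 interferon response and 3 and 3 antigen presentation genes higher. Thinning each nucleus to 1000 UMIs left 896 testable genes and 12, 0 and 18 calls, with 0 interferon response and 0 antigen presentation genes (39 genes had an unadjusted p under 0.05 against the untraced libraries, and DESeq2 called 16 there on counts not thinned). DESeq2 called 28, 16 and 11, with 5 interferon genes against the untraced libraries. With no filter, 37 were called against the untraced libraries, with 14 interferon and 7 antigen presentation genes against the control and 5 of the latter against the untraced libraries. At least 20 nuclei per library, which drops hemisection replicate 1, gave 5 and 2 interferon genes and 129 genes for the control against the untraced libraries, and fitting only the groups compared gave 141 there.

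Leaving out 1 library in turn gave 106 to 147, 14 to 40 and 36 to 54 called genes, 5 to 12 and 2 to 11 interferon and 2 to 4 and 3 to 3 antigen presentation genes, and 8 to 190, 3 to 20 and 12 to 64 genes differing from oligodendrocytes (both references) and microglia. The share difference turned to -1.70 percentage points over all nuclei and ranged from -2.20 to 8.01 with a library left out. B2m against the untraced libraries and 12 genes against the control were called in every setting that gave them an adjusted p. Signs turned without the tenth of nuclei with most other markers (St18 0.33, Tnr 0.00157, Fyn 0.057 against the control; Tnr -0.21, Bcas1 -0.28, Fyn -0.037 for the control against the untraced libraries), without the nuclei with an Enpp6 UMI, a setting chosen after seeing the data that drops 24 control and 0 hemisection nuclei by a listed committed-stage gene (St18 0.27, Tnr 0.011, Fyn 0.10 against the control; Tnr -0.21, Bcas1 -0.22, Fyn -0.081 for the control against the untraced libraries), with at least 20 nuclei (Pdgfra 0.011 against the untraced libraries; Tnr -0.067 for the control against the untraced libraries), with no filter (Tnr -0.071 for the control against the untraced libraries), with only the groups compared (Tnr -0.080 for the control against the untraced libraries). With 1 library left out, Pdgfra ranged from -0.45 to 0.053 against the untraced libraries and -0.014 to 0.51 for the control against them, and Tnr from -0.14 to 0.14 for the latter; the cause was not tested.

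Hemisection and untraced libraries share replicate numbers but not animals or experiments, and their replicate differences correlated by 0.07 over 3250 genes. With the replicate number as a block, 20 genes were called against the untraced libraries, 6 of them interferon response and 3 antigen presentation genes.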

Other observations

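Axon guidance and signalling genes, lists that the comparisons above do not describe, gave few calls in OPC. Of 16 tested guidance genes 1 was called higher against the control (Sema3d, a secreted repellent, 1.16 ± 0.30 (SE), adjusted p = 0.00517) and 0 against the untraced libraries (edgeR), and of 8 tested Wnt, BMP and TGF beta genes 0 were called in either comparison. Sema3d stood at 752 and 1055 CPM in untraced, 497 in control and 815 and 1478 in hemisection OPC. Of 9 tested chaperone genes 3 (Hspa8, Hsp90b1 and Calr) were lower after hemisection than in the control and 3 higher in the control than in the untraced libraries, with Hspa8 at 86.3 and 32.3 CPM in untraced, 289 in control and 55.3 and 67.6 in hemisection OPC. Of 13 tested ribosomal protein genes 3 were higher in the control than in the untraced libraries, and 0 were called after hemisection, with edgeR medians of -1.14 against the control and 0.57 against the untraced libraries. Of 22 Hox genes 0 had enough counts to be tested. The traced libraries held 1 OPC nucleus each, with 1112 and 5270 UMIs, of which 10 and 31 were of Tnr and 0 and 5 of Pdgfra.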
